A study of Mus musculus with 4 samples.

Results

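The genes described here encode the mouse translation initiation factors, the proteins that bring messenger RNA, initiator tRNA and ribosomal subunits together at the start codon. They were taken as all protein-coding genes whose symbol starts with Eif and a digit, without the eIF2α kinases (Eif2ak genes), that had at least 10 expected counts in at least 2 libraries. Of 51 such symbols 49 met the count rule, among 55364 genes in the deposited tables. The 2 left out were Eif4e1b, an eIF4E paralogue with 1 count in 1 library and none in the other 3, and Eif4ebp3, an eIF4E-binding protein with 9.25 and 3.16 counts in wild type and 6.97 and 0 in the knock-in. The libraries were made from pachytene spermatocytes, male germ cells that are partway through the prophase of meiosis I. They came from mouse testis, digested with collagenase and then trypsin and fractionated by centrifugal elutriation. WT denotes the 2 wild-type libraries and KK the 2 libraries whose genotype label is DDX4 homozygous knock-in. The protein of Ddx4 is a germline RNA helicase, known as the vasa homolog of the mouse, and the series title names germ granules formed by phase separation, RNA balance and germline development as its subject. The inserted sequence, strain and age are not given in the labels used here, and whether the 2 libraries per genotype stem from different mice is not stated either. The p-values then measure only how these samples vary, and that variation may be technical.

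Initiation begins when eIF2, loaded with GTP and the initiator tRNA, joins eIF1, eIF1A, eIF3 and eIF5 on the small ribosomal subunit. The cap-binding protein eIF4E, the scaffold eIF4G and the RNA helicase eIF4A recruit this complex to the messenger RNA, and the eIF4E-binding proteins block that step by occupying eIF4E. Many messenger RNAs of spermatocytes are made well before the stage at which they are translated and are stored with proteins meanwhile, so control of initiation has long been studied in these cells.

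Most initiation factor genes were abundant and moved little. By edgeR's quasi-likelihood test at an adjusted p of 0.05, 17 of the 49 were lower in KK, where 21.7% of all genes tested were lower, and 7 were higher, where 22.0% of all genes tested were higher. Eif5, which triggers GTP hydrolysis by eIF2 at the start codon, fell the most, to 31.4% below WT. The genes that rose the most were of low to moderate level: Eif4e3, Eif2s3y, Eif4ebp1 and Eif4ebp2, of which the last 2 encode inhibitors of eIF4E. The eIF3 genes, summed, stood at 3009 TPM in WT and 3008 TPM in KK (TPM, the authors' transcript level scaled for length and library size).

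Promoter sequences are shown for 6 of these genes because the genes share promoter features and yet differ in the direction in which their RNA moved. The RefSeq tables on build GRCm38.p6 hold windows of 300 bases, 250 before and 50 after an annotated start, for 39 of the 49 genes, 51 windows in all. The stretches below run from 120 bases before to 10 bases after an annotated start, 5′ to 3′ on the gene's strand. Capitals mark GGGCGG (the GC box, the motif of Sp1-type factors), CACGTG (the E-box) and CCGGAAG (the motif of ETS factors) on either strand. Eif5a (chr11:69921377-69921506, minus strand) fell, and its paralogue Eif5a2 (chr3:28781157-28781286, plus strand) did not pass the test. The start shown for Eif5a is that of its isoforms Eif5a-201 and Eif5a-210. They held only 0.05 to 0.21% and 1.79 to 4.16% of its TPM, with both shares higher in KK. The Eif5a isoforms of larger share start elsewhere. Eif4e2 (chr1:87213794-87213923, plus strand) fell. Eif3d (chr15:77970815-77970944, minus strand), Eif4g1 (chr16:20672607-20672736, plus strand) and Eif4ebp2 (chr10:61452660-61452789, minus strand) rose. These genes were picked after their values were seen, from those whose stretch takes in few annotated exon bases.
Eif5a: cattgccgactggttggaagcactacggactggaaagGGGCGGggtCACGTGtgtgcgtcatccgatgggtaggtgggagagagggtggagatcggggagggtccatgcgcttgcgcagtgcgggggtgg
Eif5a2: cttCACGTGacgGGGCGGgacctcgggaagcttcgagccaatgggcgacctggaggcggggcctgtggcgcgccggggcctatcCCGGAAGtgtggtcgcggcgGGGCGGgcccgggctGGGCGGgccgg
Eif4e2: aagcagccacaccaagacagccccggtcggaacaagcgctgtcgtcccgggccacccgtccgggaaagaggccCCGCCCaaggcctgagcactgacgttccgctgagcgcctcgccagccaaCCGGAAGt
Eif3d: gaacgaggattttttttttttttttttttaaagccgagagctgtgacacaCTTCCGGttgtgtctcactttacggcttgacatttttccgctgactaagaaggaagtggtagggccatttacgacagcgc
Eif4g1: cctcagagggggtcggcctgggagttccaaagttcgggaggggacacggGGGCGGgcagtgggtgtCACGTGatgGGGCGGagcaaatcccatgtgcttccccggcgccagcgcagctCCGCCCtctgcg
Eif4ebp2: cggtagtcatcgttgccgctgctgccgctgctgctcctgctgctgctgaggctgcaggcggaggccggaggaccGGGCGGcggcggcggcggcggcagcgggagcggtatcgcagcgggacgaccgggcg
In this alignment by start site, Eif5a2 and Eif4g1 each hold 3 copies of GGGCGG and 1 of CACGTG, and Eif3d holds only CCGGAAG. Over the whole windows, GGGCGG was found in 38 of the 51 (74.5%) against 35.7% of all 32851 windows in the tables. CCGGAAG was found in 18 (35.3%) against 8.86%, and CACGTG in 12 (23.5%) against 7.15%. TATAAA and CCAAT were less frequent than in all windows, in 4 (7.84%) against 13.6% and in 13 (25.5%) against 37.4%. AACNGTT, the core motif of MYB factors, and TGACGTCA, the cAMP response element, were found in 0 of the 51, against 4.45% and 1.79% of all windows. At rates this low few of 51 windows would hold them, so these 0 values say little. The motifs named here were searched on both strands, windows of 1 gene can overlap, and a match is a description of letters only. Genes that fell and genes that rose both carried the GC box, 11 of 15 and 5 of 5 with a window, as did 15 of the 19 that did not pass. CACGTG was found in 6 of the 15 that fell (Eif1b, Eif3a, Eif3f, Eif4e, Eif4h and Eif5a), in 1 of the 5 that rose (Eif4g1) and in 3 of the 19 others (Eif3k, Eif4a1 and Eif5a2).

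The libraries held 17970207 to 19438570 expected counts each. Ddx4 itself stood at 265 and 273 TPM in WT and 54.4 and 52.5 TPM in KK, with a log2 fold change of -2.34 ± 0.04 (SE), lower in both KK libraries. Over all 16571 genes tested, 43.7% passed. With library totals in place of TMM factors (trimmed mean of M values), 64.2% of calls were increases in KK in place of 50.4%. CPM of single genes are read counts scaled to library size with the TMM factors. Summed marker levels are instead scaled to library totals alone. The TMM factors (0.971 and 0.972 in WT, 1.03 and 1.02 in KK) would raise the WT sums and lower the KK sums. Of the marker genes of pachytene cells, 13 of 19 tested fell and 1 rose (summed level 16742 to 16795 CPM in WT and 15803 to 16067 in KK). Of the spermatid markers 7 of 12 fell and 4 rose. Markers of Leydig cells rose in 8 of 10 (258 to 272 CPM summed in WT, 769 to 771 in KK), of spermatogonia in 7 of 11 with 1, Id4, lower (119 to 122 and 127 to 136), of Sertoli cells in 2 of 10 with 3 lower (160 to 165 and 207 to 208), of macrophages in 2 of 6 (4.68 to 4.74 and 6.22 to 6.34), and of peritubular and endothelial cells in 2 of 5 (6.82 to 8.75 and 11.3 to 12.9). None of the tested markers was at 0 in all 4 libraries. In these bulk samples, fewer cells of a type and less RNA per cell cannot be told apart.

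In WT the 49 genes covered a wide range of levels. TPM values, which can be set side by side between genes, were highest for Eif5a (956 and 929 TPM), which carries the hypusine residue and acts in elongation and termination as well as initiation. Next came Eif3k (709 and 697 TPM), the smallest eIF3 subunit, and Eif5 (629.9 and 635 TPM). At the other end, Eif4e3, Eif3j2 and Eif2s3x had means of 0.545, 0.820 and 1.15 TPM. In all 4 libraries 36 of the 49 genes were above 20 TPM. The summed level of all 49 was 7930 ± 38.5 TPM in WT and 7290 ± 21.3 TPM in KK (SD, n = 2). TPM also depends on which isoforms the authors' software assigned reads to: Eif1ax owes 79.3 to 85.02% of its TPM to Eif1ax-202, a retained-intron isoform of 416 bases that held only 7.41 to 10.4% of its counts.

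**Figure D1:**
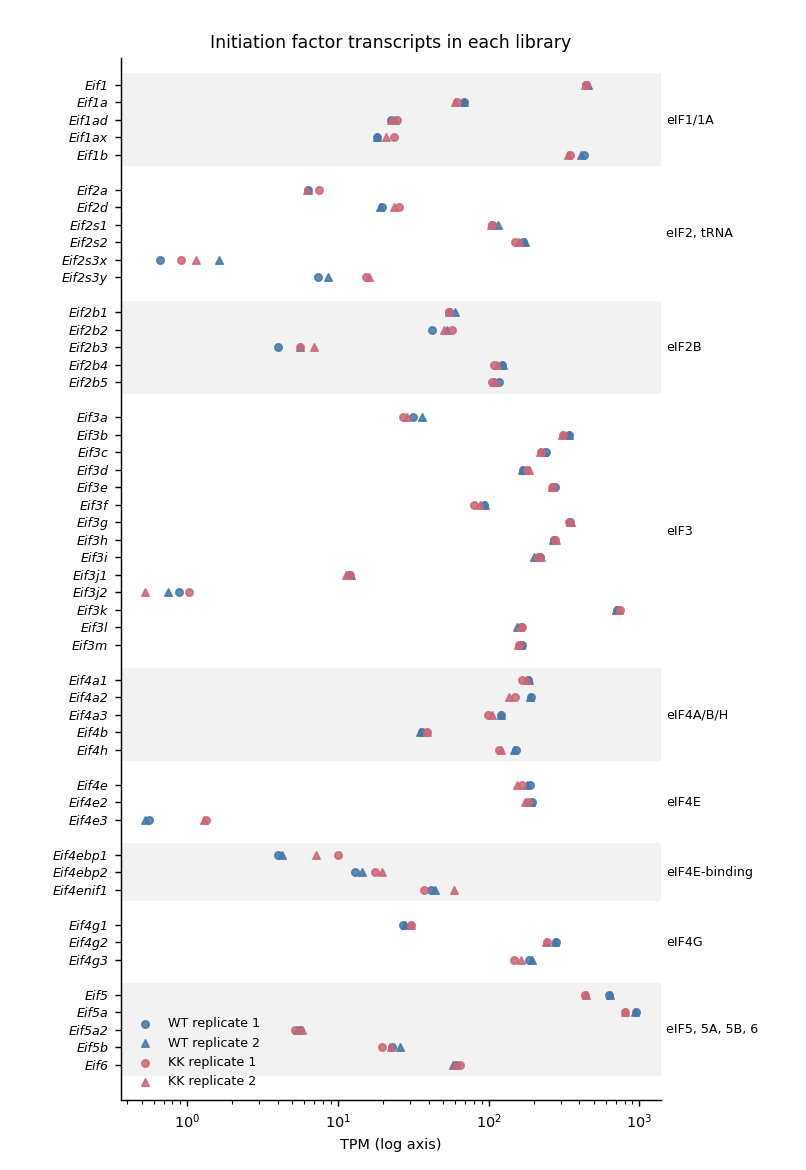
TPM on a log axis of each of the 49 genes in each library, blue for WT and red for KK, with circles for replicate 1 and triangles for replicate 2, grouped by role. Most genes sit above 20 TPM with the 4 libraries close together; Eif4e3, Eif2s3y, Eif4ebp1 and Eif4ebp2 stand apart by colour at lower levels, and Eif5 does at a high one.

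All 49 genes passed the expression filter. Of them, 7 rose (14.3%, against 22.0% of all genes tested), 17 fell (34.7%, against 21.7%) and 25 did not pass. Their median log2 fold change was -0.06 against 0.00 for all genes tested, and it was 0.03 when library totals replaced the TMM factors, with 13 higher and 12 lower: Eif2b3, Eif3g, Eif3h, Eif3i, Eif3k and Eif3l then passed as higher, and Eif2b4, Eif2s2, Eif3b, Eif3f and Eif4a3 no longer passed as lower. With limma on log2(TPM + 1) in place of edgeR, 4 were higher and 9 lower. The genes that no longer passed with limma were Eif1a, Eif2b4, Eif2s2, Eif3a, Eif3d, Eif3f, Eif4e, Eif4e2, Eif4ebp2, Eif4enif1 and Eif4g1. In 35 of the 49 the genotypes did not overlap in CPM, as in 70.8% of all genes tested. Changes were small: decreases ran from 1.10-fold (Eif3b) to 1.46-fold (Eif5), and increases from 1.10-fold (Eif3d) to 2.40-fold (Eif4e3).

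Direction went with abundance. Among the 41 genes with a mean of at least 20 CPM, a split chosen after the values were seen, 17 fell and 4 rose (median log2 fold change -0.09). The 41.5% that fell is close to the 40.2% of all 6602 genes of that abundance that were lower in KK (19.6% were higher), whose median was also -0.09. Of the 8 genes below 20 CPM, 3 rose (37.5%) and 0 fell, with a median of 0.56. Of all 9969 tested genes below that level, 23.6% were higher and 9.4% lower, with a median of 0.15. Across the 49 genes the log2 fold change had a Pearson's r of -0.70 and a Spearman's rho of -0.56 with log2 mean CPM, and of -0.04 and -0.08 with log2 length. These coefficients are across genes of the same 4 libraries, which are not independent replicates.

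**Figure D2:**
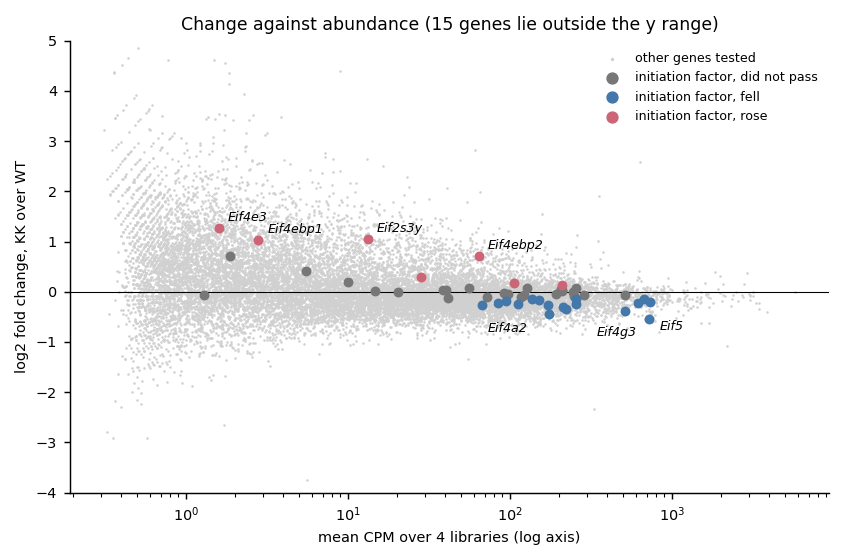
Log2 fold change (KK over WT) against mean CPM over the 4 libraries on a log axis, with other tested genes in grey and the 49 initiation factor genes as large points coloured by call. The genes that fell, in blue, all lie above 20 CPM, and 3 of the genes that rose lie below it, within the spread of the grey points at the same abundance.

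**Figure D3:**
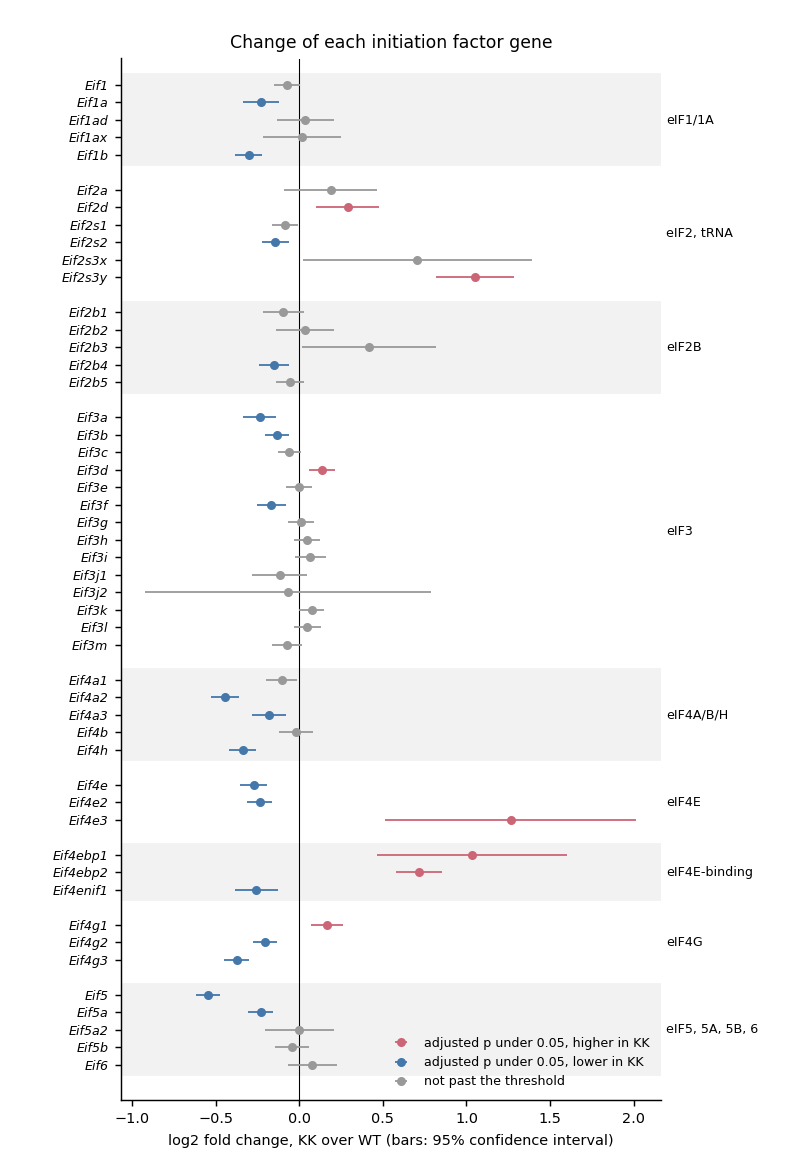
Log2 fold change (KK over WT) of each of the 49 genes with its 95% confidence interval, grouped by role and coloured by call. Most eIF3 genes lie near 0, both eIF4E-binding proteins lie to the right, and Eif5, Eif4a2, Eif4g3 and Eif4h lie farthest to the left.

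Of the genes of eIF1 and eIF1A, which open the small subunit for scanning and keep it from stopping at a wrong codon, Eif1b and Eif1a fell and the other 3 did not pass. Eif1b stood at 236 and 231 CPM in WT and 193 and 186 CPM in KK. The genotypes did not overlap, and Eif1b fell by 0.30 ± 0.04 (SE) on the log2 scale (adjusted p = 2.63e-07). Its near-identical paralogue Eif1 was at 286 and 299 CPM against 282 and 275, without overlap, and did not pass (log2 fold change -0.07, 95% interval -0.15 to 0.01, adjusted p = 0.132). Without the first KK library the change of Eif1 was -0.10. With an offset for the trend of counts with gene length, Eif1 passed as lower in the edgeR test (adjusted p = 2.35e-04). Eif1b thus made up 48.3% ± 1.34 of the TPM of the pair in WT and 43.7% ± 0.117 in KK (SD, n = 2). The autosomal eIF1A gene Eif1a fell, from 91.5 and 90.9 CPM to 79.7 and 76.1 (log2 fold change -0.23 ± 0.05). The X-linked Eif1ax, at 13.7 and 15.5 CPM in WT and 16.2 and 13.3 in KK, overlapped between genotypes and did not pass (95% interval -0.22 to 0.25). Eif1ad, which encodes a protein with an eIF1A domain, did not pass either (0.04). Of all tested X-linked genes 57.6% were higher in KK (median log2 fold change 0.89), and the value of Eif1ax was 0.02. Eif1b overlaps D830035M03Rik on the opposite strand, and reads of the 2 genes could not be told apart in these unstranded libraries.

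The eIF2 complex, which carries the initiator tRNA, has an α, a β and a γ subunit, and the γ subunit is encoded on both sex chromosomes, which are largely silenced at the pachytene stage. Eif2s3y, the Y-linked γ gene that mouse spermatogonia need in order to proliferate, had 8.80 and 8.46 CPM in WT and 17.8 and 17.96 CPM in KK (155 and 158 against 358 and 330 counts). Both KK libraries were about alike and far above both WT libraries, and the gene rose 2.07-fold (log2 fold change 1.05 ± 0.11, adjusted p = 1.32e-08). Of all tested Y-linked genes 66.7% were higher, with a median of 1.38. The X-linked Eif2s3x had few reads, with 21 and 31 counts in WT and 48 and 42 in KK. It did not overlap between genotypes and did not pass (log2 fold change 0.71 ± 0.33, adjusted p = 0.0868). In TPM, Eif2s3x overlapped, at 0.66 and 1.64 in WT and 0.91 and 1.15 in KK, and its log2 change was -0.10 with effective length as an offset (adjusted p = 0.895) and -0.05 with limma on log2(TPM + 1) (adjusted p = 0.911). In the second WT library 66.8% of its TPM lay in Eif2s3x-203, a processed transcript of 729 bases that held 6.61 counts. Eif2s3y made up 88.1 and 83.6% of the γ-subunit counts in WT and 88.2 and 88.7% in KK. The β-subunit gene Eif2s2 fell slightly, from 263 and 272 CPM to 236 and 249 (log2 fold change -0.14); the call was lost without the second WT library (-0.12, adjusted p = 0.0573) and with library totals (-0.06, adjusted p = 0.221). The α-subunit gene Eif2s1, whose product is the target of the eIF2α kinases, did not pass (-0.09, adjusted p = 0.0618). Its CPM did not overlap between genotypes, and it passed as lower when no expression filter was used. Eif2d, which can deliver tRNA to the small subunit outside the usual route, rose from 26.1 and 25.0 CPM to 31.7 and 30.9 (log2 fold change 0.29 ± 0.09, adjusted p = 0.0118). That call was lost with DESeq2 in place of edgeR, without the second WT library (0.25) and without the first KK library (0.26). Eif2a, another tRNA-delivering factor, did not pass (0.19, adjusted p = 0.282).

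Leydig cell markers were higher in KK together with Eif2s3y, over the ranges given above. Of the spermatogonial markers, 7 of 11 tested rose and 1 fell. Their median log2 fold change was 1.06, against 0.86 for the Leydig markers. Summed, the spermatogonial markers were little higher in CPM by library totals, a gap that the TMM factors would narrow. In TPM the sums of spermatogonial markers overlapped (62.6 and 112 in WT, 80.5 and 87.8 in KK). The part of either cell type in the increase of Eif2s3y was not tested.

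Of the 5 genes of eIF2B, the exchange factor that reloads eIF2 with GTP, only Eif2b4, the δ subunit, fell, from 144 and 146 CPM to 128 and 134 (log2 fold change -0.15, adjusted p = 0.00525). The call was lost with library totals (-0.07, adjusted p = 0.212) and with limma on log2(TPM + 1) (-0.16, adjusted p = 0.0569). Eif2b1, Eif2b2, Eif2b3 and Eif2b5 did not pass. Eif2b3, the γ subunit, had the lowest level of the 5, with 3.98 and 5.46 CPM in WT and 5.63 and 7.02 in KK, and an interval of 0.01 to 0.82 for its log2 fold change. Its call changed with the libraries used: it passed without the second WT library (0.66, adjusted p = 0.0182) and without the first KK library (0.56, adjusted p = 0.0436).

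The 14 genes of eIF3, the large complex that bridges the small subunit and eIF4G, mostly did not pass. Their summed level was 3009 ± 39.7 TPM in WT and 3008 ± 13.5 TPM in KK (SD, n = 2), and 3 of the 14 fell, 1 rose and 10 did not pass. This split depended on the scaling: with library totals in place of TMM factors 6 were higher (Eif3d 0.22, Eif3g 0.10, Eif3h 0.13, Eif3i 0.15, Eif3k 0.16 and Eif3l 0.13) and only Eif3a was lower (-0.15, adjusted p = 0.0113). Eif3a, the largest core subunit, had 117 and 126 CPM in WT and 101 and 105 in KK and fell by 0.24 ± 0.05 on the log2 scale (adjusted p = 1.92e-04). Eif3b and Eif3f fell less, by 0.13 and 0.17, and did not pass with library totals (-0.05 and -0.08, adjusted p = 0.253 and 0.116). Eif3d, which can itself bind the cap of some messenger RNAs, was the one member that rose, from 201 and 199 CPM to 217 and 223 (log2 fold change 0.13 ± 0.04, adjusted p = 0.00512); its call was lost without the second WT library (0.12, adjusted p = 0.0831), and 1 library held a fraction of a count shared with another locus. Eif3k, the most abundant eIF3 gene, was at 250.3 and 248 CPM against 265 and 259.6, did not overlap and did not pass (0.07, adjusted p = 0.107). The loosely bound eIF3j subunit came almost wholly from Eif3j1 (43.1 and 43.0 CPM in WT, 38.4 and 41.0 in KK), and Eif3j2 had 1.42 and 1.23 CPM in WT and 1.64 and 0.871 in KK, which overlap. Counts of both eIF3j genes include reads shared with other loci, neither gene passed, and the interval of Eif3j2, -0.92 to 0.79, would hold a large change in either direction. The remaining genes, Eif3c, Eif3e, Eif3g, Eif3h, Eif3i, Eif3l and Eif3m, had log2 fold changes between -0.07 and 0.07. The interval of Eif3e, which lay at 0, was -0.08 to 0.08.

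The cap-binding genes split between abundant members that fell and a rare one that rose. Eif4e, the main cap-binding protein, was at 188 and 188 CPM in WT and 157 and 155 CPM in KK, a clean separation, and fell by 0.27 ± 0.04 on the log2 scale (adjusted p = 1.63e-06). Eif4e2, whose product (4EHP) binds the cap without recruiting eIF4G and represses its targets, had 273 and 278 CPM against 237 and 231 and fell by 0.24 ± 0.04 (adjusted p = 6.67e-06). With limma on log2(TPM + 1), both kept this direction but did not pass (Eif4e -0.19, adjusted p = 0.0709; Eif4e2 -0.12, adjusted p = 0.0969). These 2 genes held all but 0.143 to 0.391% of the eIF4E-family TPM in each library. Eif4e3 rose 2.40-fold from very few reads, 17 and 17 counts in WT and 46 and 41 in KK (log2 fold change 1.26 ± 0.37, adjusted p = 0.00605), and went from 0.144% to 0.385% of the family TPM.

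The genes of the inhibitors that occupy eIF4E were higher in KK, where Eif4e was lower. Eif4ebp2, the more abundant 4E-BP gene, stood at 47.2 and 50.3 CPM in WT and 75.8 and 84.4 CPM in KK. Every KK library was above every WT library, and the gene rose 1.64-fold (log2 fold change 0.71 ± 0.07, adjusted p = 8.76e-10). With limma on log2(TPM + 1) the change was 0.41 and the call was lost (adjusted p = 0.0556). Eif4ebp1 had 31 and 36 counts in WT and 87 and 59 in KK and rose 2.05-fold (log2 fold change 1.03 ± 0.28, adjusted p = 0.00314). Its call rested on the first KK library, without which the change was 0.78, adjusted p = 0.0681. Most reads of Eif4ebp1 were not assigned to its coding RNA: Eif4ebp1-202, a processed transcript of 798 bases, held 24.7 and 27.7 counts in WT and 71.2 and 46.2 in KK. The protein-coding Eif4ebp1-201 had 6.29 and 8.30 counts in WT and 15.8 and 12.8 in KK, or 0.27 and 0.34 against 0.60 and 0.53 TPM. Over protein-coding isoforms alone, the TPM of Eif4e divided by that of Eif4ebp1 and Eif4ebp2 together was 14.2 and 11.97 in WT and 8.71 and 7.63 in KK. With all isoforms it was 11.1 and 9.48 in WT and 6.07 and 5.73 in KK. The phosphorylation that controls binding of these inhibitors was not measured.

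Eif4enif1, whose product 4E-T carries eIF4E into the nucleus and to processing bodies and holds messenger RNA silent, fell in counts, from 71.2 and 76.1 CPM to 59.5 and 63.8 (log2 fold change -0.26 ± 0.06, adjusted p = 0.00143). Its TPM went the other way in 1 library: 41.2 and 44.0 TPM in WT and 37.0 and 59.2 TPM in KK. In the second KK library, 4.26 counts assigned to Eif4enif1-212, a retained-intron isoform of 297 bases, gave 17.8 TPM. The direction of Eif4enif1 therefore differs between counts and TPM, and the gene also overlaps Drg1 on the opposite strand. Among the somatic lists, only that of Leydig cells rose as a group alongside Eif4e3 and the 2 inhibitor genes (8 of 10). The Sertoli list had a median log2 fold change of -0.31, although its summed level was higher in KK. Most macrophage genes, and most peritubular and endothelial ones, did not pass. The part of these cell types in the results for Eif4e3 and the inhibitor genes was not tested.

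**Figure D4:**
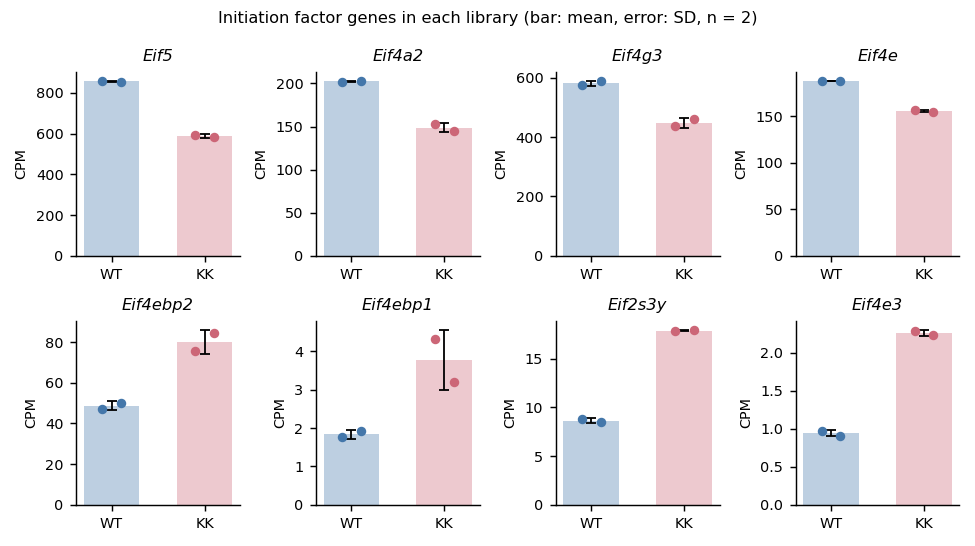
CPM of 8 genes in each library, with bars for the mean and error bars for the SD of 2 libraries; each axis starts at 0. The upper row (Eif5, Eif4a2, Eif4g3, Eif4e) is lower in KK and the lower row (Eif4ebp2, Eif4ebp1, Eif2s3y, Eif4e3) higher, with wide scatter for Eif4ebp1 in KK.

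Of the eIF4G scaffolds, both abundant genes fell and the least abundant rose. Eif4g3, whose loss blocks male meiosis in mice, had 575 and 588 CPM in WT and 437 and 461 CPM in KK. The genotypes were well apart, and it fell by 0.37 ± 0.04 on the log2 scale (adjusted p = 1.50e-09); the antisense gene 1700095J12Rik overlaps it. Eif4g2, which lacks the eIF4E-binding region and serves cap-independent initiation, was at 789 and 788 CPM against 688 and 681 and fell by 0.20 ± 0.03 (adjusted p = 1.50e-05). Eif4g1, the scaffold of most somatic cells, rose from 98.7 and 101 CPM to 112 and 113 (log2 fold change 0.16 ± 0.05, adjusted p = 0.00491). That call was lost with DESeq2 in place of edgeR, with limma on either TPM scale and with effective length as an offset. It was also lost without the first WT library (0.14). In its protein-coding isoforms the TPM overlapped, at 15.4 and 17.7 in WT and 16.6 and 16.2 in KK. By TPM, which accounts for length, Eif4g2 made up 56.1% ± 1.21 of the 3 in WT, Eif4g3 38.3% ± 1.10 and Eif4g1 5.56% ± 0.110; in KK the shares were 56.4% ± 1.64, 36.4% ± 1.72 and 7.16% ± 0.0832 (SD, n = 2). The summed level was 496 ± 3.56 TPM in WT and 427 ± 9.21 TPM in KK.

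Among the helicases and their partners, the second eIF4A gene fell and the first did not pass. Eif4a2 had 202 and 203 CPM in WT and 153 and 145 CPM in KK, without overlap. It fell by 0.44 ± 0.04 on the log2 scale (adjusted p = 4.28e-10); Rfc4 overlaps it on the opposite strand. Eif4a1, the general helicase of somatic cells, was at 126 and 118 CPM against 114 and 113 (log2 fold change -0.10, interval -0.20 to -0.01, adjusted p = 0.0661). With an offset for the trend of counts with gene length, Eif4a1 passed as lower in the edgeR test (adjusted p = 4.52e-04). Without the second WT library its change was -0.16, and its counts include reads shared with other loci. Over all isoforms, Eif4a2 made up 50.9% ± 0.605 of the TPM of the pair in WT and 45.1% ± 2.998 in KK (SD, n = 2). Protein-coding isoforms held only 38.3 to 45.8% of the TPM of Eif4a1, against 69.4 to 72.2% for Eif4a2. In those isoforms Eif4a2 was above Eif4a1 in every library. Eif4a2 had 138 and 132 coding TPM in WT and 103 and 98.6 in KK, and Eif4a1 82.9 and 72.3 against 71.2 and 69.4. Eif4h, which stimulates eIF4A, fell from 249.7 and 243 CPM to 193 and 197 (log2 fold change -0.34 ± 0.04, adjusted p = 2.70e-08). Eif4b, the other stimulator, did not pass, with an interval of -0.12 to 0.08. Eif4a3, the paralogue that anchors the exon junction complex on spliced RNA, fell from 103 and 99.4 CPM to 87.3 and 91.3 (log2 fold change -0.18, adjusted p = 0.00353), and its call was lost without the first WT library (-0.17, adjusted p = 0.0519) and with library totals as scaling (-0.10, adjusted p = 0.105). The difference between paralogues was not tested.

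The late-acting factors held the largest decrease. Eif5 stood at 859 and 855 CPM in WT and 595 and 582 CPM in KK, the widest separation among the genes that fell. It fell 1.46-fold (log2 fold change -0.54 ± 0.03, 95% interval -0.61 to -0.47, adjusted p = 3.36e-13). Eif5a had 688 and 651 CPM in WT and 575 and 566 CPM in KK and fell by 0.23 ± 0.04 on the log2 scale (adjusted p = 5.65e-06). Its paralogue Eif5a2, at 20.8 and 19.9 CPM against 19.2 and 21.5, overlapped between genotypes, with an interval of -0.21 to 0.21. Eif5a supplied 99.4% of the TPM of the pair in WT and 99.3% in KK. Eif5b, the GTPase that joins the large subunit, and Eif6, which keeps free large subunits from joining, did not pass (-0.04 and 0.08). Summed over these 5 genes the level was 1664 ± 14.9 TPM in WT and 1333 ± 2.18 TPM in KK (SD, n = 2), most of the difference in Eif5 and Eif5a.

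The isoform files list 324 isoforms of the 49 genes, of which 156 had at least 10 counts in at least 2 libraries. Isoform values are the authors' estimates from short reads and were not tested. No isoform of a gene of at least 5 TPM differed by over 25 points of its gene's total between genotypes without overlap, and the leading isoform was the same in both genotypes for 44 of the 49 genes. In genes of at least 5 TPM, the 5 isoforms that differed by at least 10 points without overlap between the genotypes, a limit chosen after the values were seen, belonged to Eif4ebp2, Eif4b and Eif4enif1. Eif4ebp2-202 is a short form of 1422 bases whose 3′ end lies 4329 bases before that of Eif4ebp2-201 (5784 bases). It was assigned 39.6 and 57.4 counts in WT and 0 and 0 in KK, while Eif4ebp2-201 had 792 and 883 counts in WT and 1522 and 1551 in KK. The increase of the gene thus lay in the long isoform, and the short one was listed at 0 in KK. For Eif4b, which itself did not pass, the short form was the higher one in KK: Eif4b-204, a form of 1548 bases that ends 6826 bases before Eif4b-201, went from 6.80 and 3.75% of the gene's TPM in WT to 21.3 and 21.8% in KK (41.6 and 23.5 counts against 162 and 151). Of the counts of Eif5, Eif5-212 held 53.1 and 49.0% in WT and 41.8 and 44.8% in KK, whereas Eif5-202 overlapped between genotypes (20.6 and 24.8% against 29.6 and 24.4%). Of the counts of Eif4g1, Eif4g1-210, a retained-intron form, held 38.2 and 32.1% in WT and 43.3 and 45.0% in KK.

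**Figure D5:**
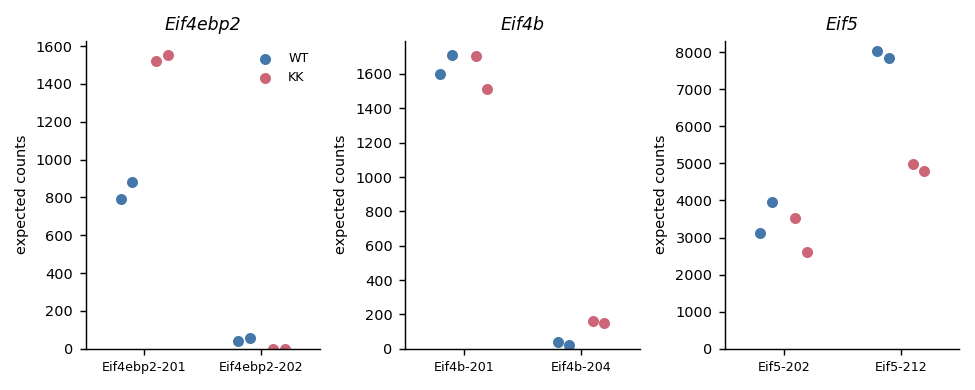
Expected counts of 2 isoforms each of Eif4ebp2, Eif4b and Eif5 in every library, blue for WT and red for KK, on linear axes from 0. Eif4ebp2-201 is higher and Eif4ebp2-202 at 0 in KK, Eif4b-204 is higher in KK, and Eif5-212 is lower in KK.

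Other genes of the translation pathway outside the name rule (44 listed, 42 tested: eIF2α kinases and phosphatase subunits, poly(A)-binding proteins, cap kinases, elongation, release and recycling factors) were higher in 6 (14.3%, against 22.0% of all genes tested) and lower in 14 (33.3%, against 21.7%). With limma on log2(TPM + 1) 12 changed in place of these 20. Among all tested genes with a mean of at least 20 CPM, 40.2% were lower and 19.6% higher. Below that level 9.4% were lower and 23.6% higher. The related genes were not split by abundance. Larp1, which binds the cap of messenger RNAs for ribosomal proteins, had 832 and 830.4 CPM in WT and 572 and 604 in KK and fell by 0.50 ± 0.04 on the log2 scale (adjusted p = 3.57e-12). Dhx29, a helicase that helps the small subunit through structured leaders, Mknk2, a kinase of eIF4E, D1Pas1, an autosomal testis paralogue of Ddx3x, and Rps6kb1, an S6 kinase, fell by 0.46, 0.39, 0.38 and 0.38. The call of Rps6kb1 (adjusted p = 0.0334) was lost whichever library was left out (adjusted p 0.0611 to 0.103). Ddx3x, the X-linked helicase that aids scanning, rose from 3.80 and 4.44 CPM to 8.12 and 7.73 (0.94 ± 0.18, adjusted p = 8.29e-05). Paip2b, an inhibitor of poly(A)-binding protein, Etf1, the release factor eRF1, Rptor, a subunit of the mTORC1 kinase complex, and Abce1, which recycles ribosomes, rose by 0.54, 0.40, 0.27 and 0.23. The call of Rptor was lost without the second WT or the second KK library (0.18 in both, adjusted p = 0.231 and 0.215), and that of Abce1 without the first WT or the first KK library (0.19 and 0.21, adjusted p = 0.0879 and 0.0577). None of the 4 eIF2α kinase genes passed (Eif2ak1 -0.10, Eif2ak2 -0.08, Eif2ak3 0.50, Eif2ak4 -0.10). The main elongation factor genes Eef1a1 and Eef2 did not pass, with intervals of -0.08 to 0.06 and -0.08 to 0.06.

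Reads were shared with other loci for 8 of the 49 (non-whole counts), among them Eif2s2, Eif3d, Eif3j1, Eif3j2 and Eif4a1. For 11 of the 49, a gene on the opposite strand with at least 1 TPM overlaps, and reads of the 2 could not be separated.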

How the data were processed

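Total RNA of 4 libraries was sequenced without strand marking, per the labels' protocols. Bowtie, mm10 and GRCm38 are named in the submitters' processing notes; which program counted reads, on which annotation, is not given in the sources used here. The authors deposited expected counts, TPM and effective lengths per gene, and for isoforms also the percent of the gene's TPM, per the file headers. Symbols came from a GENCODE annotation of GRCm38, which named 55104 of the 55364 genes. Expected counts were rounded and tested with edgeR 4.0.16 (R 4.3.3; TMM factors, default expression filter, quasi-likelihood test on genotype, all 4 libraries in 1 fit, Benjamini-Hochberg at 0.05). SE is the log2 fold change over the square root of F. On simulated counts for 16571 genes, 200 were changed. Of these, 66.0% of genes changed 1.5-fold and 80.7% of those changed 2-fold were recovered, and 4.12% of calls were unchanged genes. Far more genes, 43.7%, passed in the data, so these rates do not cover scaling under such broad change. Folds under 1.5 were not simulated.

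The genes, lists and naming rule were chosen with earlier results of these data known. Named with values were the 7 that rose, the 12 of largest decrease, paralogue sets and the 3 of highest TPM in WT, and of the related translation genes up to 5 in each direction; others were named as group members. Of the pachytene markers, H1f6 was not matched by name.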

Additional observations from a re-analysis of the deposited data

How the results depend on the processing

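The counts were recomputed under 15 other settings. Of the 24 initiation factor genes called, 9 were called under every setting (Eif1b, Eif2s3y, Eif4a2, Eif4e3, Eif4g2, Eif4g3, Eif4h, Eif5 and Eif5a), and 10 of the others not called were called under some setting. Over all genes, 7237 passed, against 3826 and 3758 with limma on log2(TPM + 1) and log2(TPM + 0.1), and 4580 with effective length as an offset. Initiation factor genes higher in KK numbered 7, against 13 with library totals as scaling and 5 with DESeq2. With limma on the same TPM scales they numbered 4 and 4. Those lower numbered 17, also 17 with DESeq2, and 9 and 9 with limma. Related translation genes changed numbered 20, against 12 and 11 with limma. The log2 fold change of Eif4enif1, -0.26, reversed to 0.13 and 0.14 with limma and 0.17 with the effective length offset, none past the threshold; the short isoform in the second KK library enters all 3 of these through the length. Leaving out 1 library at a time gave 5925 to 6552 genes changed, 6 to 7 initiation factor genes higher and 16 to 18 lower. The replicate numbers showed no sign of pairing the samples, which a single coefficient from so few libraries cannot settle. Deviations of the replicates numbered 1 had an r of -0.06. With a replicate block 7309 genes passed, 7 initiation factor genes higher and 17 lower. Genes of few counts, such as Eif4e3, Eif2s3x and Eif3j2, have wide intervals that depth limits.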
